A study of Mus musculus with 10 samples.

Results

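The immediate early transcription factors examined here are Fos, Fosb, Jun, Junb, Egr1, Egr2, Atf3, Nr4a1, Nr4a2 and Nr4a3. They were taken by gene symbol from the named probe sets of the array, and all 10 were found among 22180 genes, each with 1 probe set. Whole aortas of 10 male mice were measured on Affymetrix Mouse Gene 2.0 ST arrays. The ApoE knockout group held 5 mice that lack apolipoprotein E, the ligand that clears lipoprotein remnants from plasma. The ApoE/IL-17 double knockout group held 5 mice that lack the cytokine IL-17 as well, from a cross of IL-17-/- into ApoE-/- mice. Mice of both groups, on a C57BL/6 background, were 8 weeks old when put on high fat chow, and the vessels were taken 3 weeks later, at 11 weeks. No mice with intact ApoE are in the comparison. The labels name no promoter or cell type that limits the knockouts, and each array is given as 1 biological replicate.

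Immediate early genes are switched on by growth factors, stretch, injury and stress without a need for new protein, and their transcripts decay again quickly. The signals run through MAP kinases to serum response factor and its partners, and through cyclic AMP to CREB. Fos, Fosb, Jun, Junb and Atf3 encode bZIP proteins, of which Fos and Jun proteins pair to form the AP-1 factor. Egr1 and Egr2 encode zinc finger factors, and the Nr4a genes encode orphan nuclear receptors. In arteries these genes are known to respond to flow, mitogens and vessel injury, and they can also be induced while a tissue is handled.

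Promoter windows of RefSeq genes were searched for the binding letters of these pathways, to set the changed gene beside its paralogs. The windows run from 250 bases before to 50 bases after an annotated start (build GRCm38.p6). They cover 9 of the 10 genes, with 13 windows in all, and Egr1 was left out of the search. The sequences below are Nr4a3 (chr4:48045055-48045354, plus strand), the gene that changed, its paralogs Nr4a1 (chr15:101266596-101266895, plus strand) and Nr4a2 (chr2:57123954-57124253, minus strand), Fos (chr12:85473640-85473939, plus strand), which varied most between mice, and 1 of the 5 windows of Egr2 (chr10:67537619-67537918, plus strand). Each is written 5′ to 3′ on the strand of the gene. Capitals mark matches on either strand to TGACG, the core of a CRE, and to the CArG box bound by serum response factor.
Nr4a3: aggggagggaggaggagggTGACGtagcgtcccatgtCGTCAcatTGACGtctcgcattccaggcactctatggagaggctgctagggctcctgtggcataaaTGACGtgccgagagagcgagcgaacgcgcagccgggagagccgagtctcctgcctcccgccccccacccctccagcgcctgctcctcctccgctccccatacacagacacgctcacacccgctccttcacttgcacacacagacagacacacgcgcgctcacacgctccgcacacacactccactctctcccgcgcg
Nr4a1: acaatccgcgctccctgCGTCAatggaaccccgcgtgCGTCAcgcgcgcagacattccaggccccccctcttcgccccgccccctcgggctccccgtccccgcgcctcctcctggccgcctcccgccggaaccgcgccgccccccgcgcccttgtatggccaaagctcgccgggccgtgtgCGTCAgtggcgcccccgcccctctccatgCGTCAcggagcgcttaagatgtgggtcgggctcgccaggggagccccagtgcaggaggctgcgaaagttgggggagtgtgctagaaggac
Nr4a2: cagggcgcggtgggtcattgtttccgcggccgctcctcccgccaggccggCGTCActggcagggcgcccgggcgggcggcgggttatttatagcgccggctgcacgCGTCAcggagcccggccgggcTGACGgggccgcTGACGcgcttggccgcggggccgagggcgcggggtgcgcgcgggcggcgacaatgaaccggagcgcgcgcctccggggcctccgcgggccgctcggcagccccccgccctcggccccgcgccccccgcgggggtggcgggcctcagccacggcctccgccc
Fos: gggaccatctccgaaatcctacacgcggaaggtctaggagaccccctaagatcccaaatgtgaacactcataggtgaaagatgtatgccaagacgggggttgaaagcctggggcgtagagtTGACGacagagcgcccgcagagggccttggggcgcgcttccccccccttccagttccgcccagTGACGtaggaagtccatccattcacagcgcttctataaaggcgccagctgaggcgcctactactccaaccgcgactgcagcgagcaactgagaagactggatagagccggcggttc
Egr2: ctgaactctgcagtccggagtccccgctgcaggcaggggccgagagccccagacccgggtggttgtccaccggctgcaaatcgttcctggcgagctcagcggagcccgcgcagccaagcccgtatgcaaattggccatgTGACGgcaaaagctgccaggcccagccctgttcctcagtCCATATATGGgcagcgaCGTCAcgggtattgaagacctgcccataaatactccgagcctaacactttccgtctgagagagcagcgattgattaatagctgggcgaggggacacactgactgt
The CRE core was found in a window of 8 of the 9 genes. By window it was found in 10 of 13, of which Egr2 has 5, some overlapping. Of all 32851 windows of this length, 20.8% hold it. The Nr4a3, Nr4a1 and Nr4a2 windows held 4 matches each, so the changed and the other paralogs did not differ in that number, and the Fos window held 2. The CArG box, present in 1.63% of all windows, was found in windows of Egr2 alone among the 9 genes. Egr1 was not searched, so the box is not shown to be particular to Egr2. The full CRE TGACGTCA (1.79% of windows), which contains that core on both strands, the AP-1 letters TGANTCA (7.81%) and the Nr4a site AAAGGTCA (1.51%) were found in none of the 13 windows. These are matches of letters, and sites outside a window were not searched.

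Arrays and labels were checked before the genes were compared. The log2 value of Apoe, knocked out in all mice, lay at 6.07 to 6.46 in ApoE knockout and 6.83 to 7.26 in double knockout aortas (adjusted p = 0.00114, limma). For Il17a the values were 4.20 to 4.54 and 4.48 to 4.94 (adjusted p = 0.0726). All Il17a values are under 5.80, a mark set by 1428 olfactory, vomeronasal and taste receptor genes (their 95th percentile by mean) and called the receptor gene level from here on. No source used here says whether the probes lie inside the deletions, so neither gene checks the labels. The 6 smooth muscle markers had mean levels of 10.20 to 13.46. Over all genes, 30.3% passed a limma adjusted p of 0.05, 22.8% as higher and 7.53% as lower in the double knockout, with a median difference of 0.10. That median was 0.01 over the 13499 genes at or above the receptor gene level and 0.29 over the receptor genes themselves. Of the calls, 75.1% were higher as deposited, 44.4% after quantile normalization and 22.8% after centring each array on its own median. Blood markers were lower in the double knockout in 4 of 5 for red cells (summed log2 values of 43.9 to 48.1 against 33.0 to 35.2), 5 of 5 for platelets (48.0 to 50.1 against 41.6 to 43.7), 5 of 7 for neutrophils, with 1 higher (43.0 to 51.5 against 40.1 to 42.03), and 3 of 4 for B cells (28.4 to 30.9 against 23.7 to 25.3). Macrophage markers were lower in 1 of 6 (56.2 to 59.0 against 54.6 to 59.1). The labels name no batch or scan date, and the protocols given with the 2 groups differ (caspase-1 deficient mice appear in the one for ApoE knockout aortas only), so any batch and the genotype cannot be told apart. In whole tissue, fewer cells of a type and less RNA per cell cannot be told apart either.

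Of the 10 immediate early genes, Nr4a3 alone passed the test, as higher in the double knockout, and the other 9 did not pass. That is 1 of 10, where 30.3% of all genes passed. With genes below the receptor gene level left out, 3494 of 13499 passed, 2003 higher and 1491 lower. The difference between these shares was not tested. After centring on the array medians 3 of 10 passed, with Fosb and Junb lower beside Nr4a3 higher, and 7310 of all 22180 genes passed. The median difference of the 10 genes was 0.00, beside 0.10 for all genes and 0.01 for those at or above the receptor gene level, and their differences ran from -0.59 to 0.94. All 10 genes were above the receptor gene level on every array, with a lowest value of 6.49.

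Nr4a3 encodes NOR-1, a nuclear receptor known to be induced in smooth muscle and endothelial cells by mitogens and lipoproteins. In the ApoE knockout aortas it was at log2 values of 7.06, 6.77, 7.46, 7.42 and 7.41 in replicates 1 to 5. In the double knockout aortas it was at 8.13, 8.01, 8.44, 8.27 and 7.98. Every double knockout aorta lay above every ApoE knockout aorta, and the gap between the groups, from 7.46 to 7.98, is wider than that between any neighbouring arrays within a group. A gap without overlap in this direction was found in 15.6% of all genes. The means were 7.23 ± 0.30 and 8.17 ± 0.19 (SD, n = 5 per group), a 1.92-fold difference (log2 0.94, SE 0.14, 95% interval 0.63 to 1.26, limma adjusted p = 0.00114). Nr4a3 ranked 163 of 22180 by the size of its increase. The difference was 0.91 after quantile normalization and 0.74 after centring on the array medians, with limma adjusted p-values of 0.00252 and 0.00359. The blood markers above were lower where Nr4a3 was higher, and their part in the result was not tested.

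Its paralogs did not pass the test. Nr4a1, which encodes Nur77, was at 10.65, 9.12, 10.36, 10.42 and 10.15 in the ApoE knockout replicates. Double knockout values were 10.77, 10.17, 10.56, 10.05 and 9.46. The groups overlapped, with the lowest value in ApoE knockout replicate 2 and a difference of 0.06 (95% interval -0.59 to 0.71, adjusted p = 0.889). Nr4a2, which encodes Nurr1, was at 8.15, 7.14, 7.84, 7.64 and 7.46 in the ApoE knockout replicates. It was at 8.12, 7.59, 8.14, 7.91 and 7.88 in the double knockout. The double knockout values lay within the ApoE knockout range, and the difference of 0.28 did not pass (95% interval -0.10 to 0.66, adjusted p = 0.236). After centring on the median the differences were 0.07 for Nr4a2 and -0.14 for Nr4a1. Neither interval as deposited reaches the Nr4a3 difference of 0.94.

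Whether Nr4a3 differed more than its paralogs was tested on the within-array difference of log2 values, by an exact permutation test over all 252 assignments of the arrays. The smallest p it can give is 0.0079, and p-values were adjusted over the 6 pairs within the Nr4a, Egr, Fos and Jun families. Nr4a3 rose by 0.66 more than Nr4a2 (exact p = 0.0079, adjusted p = 0.0476), and the within-array differences of the groups did not overlap. It rose by 0.88 more than Nr4a1 (exact p = 0.0159, adjusted p = 0.0476), with overlap. Both tests are near the limit of this design. They were added after the values were seen, with Nr4a3 already known as the gene that passed. Their p-values do not account for that choice. With 1 array left out the excess stayed between 0.50 and 0.76 over Nr4a2 and between 0.71 and 1.03 over Nr4a1. The smallest p is then 0.0079 as well, and its adjusted value of 0.0476 for a single pair is so close to 0.05 that the next larger p can lose the call, so the losses say little about stability. The first was lost without ApoE knockout replicate 1 or any of double knockout replicates 2 to 5, and the second held only without ApoE knockout replicate 2 or double knockout replicate 1. Without ApoE knockout replicate 1, which was above its group mean in Nr4a1 and Nr4a2 and below it in Nr4a3, both were smallest, at 0.50 and 0.71 (exact permutation, adjusted p = 0.0952 and 0.119). The pair of Nr4a2 and Nr4a1 did not pass (0.22, exact p = 0.405, adjusted p = 0.486).

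**Figure D1:**
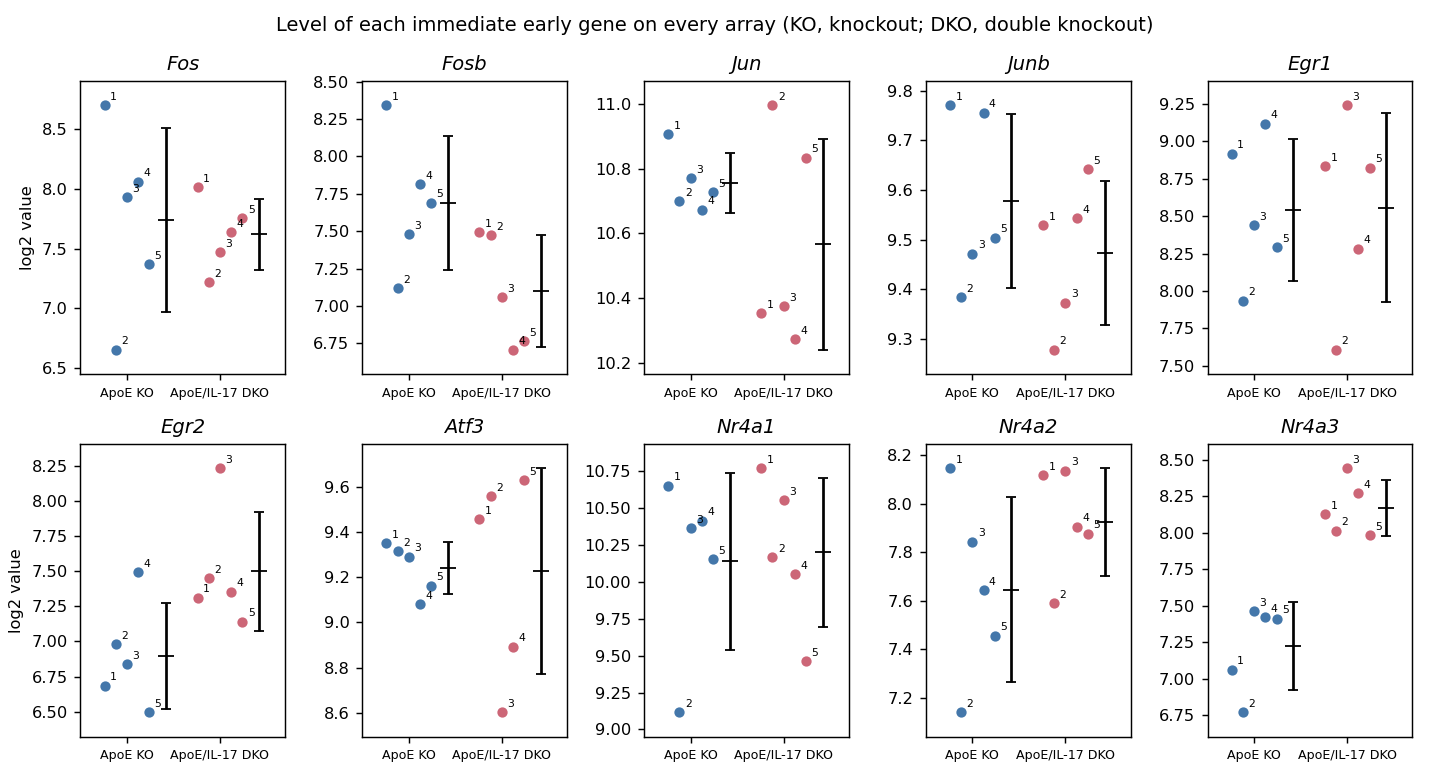
Log2 value (vertical axis, a separate scale for each gene) of the 10 immediate early genes on every array, with the replicate number beside each point and the mean ± SD (n = 5) as a black bar. Nr4a3 is the gene whose groups do not overlap (7.46 at most against 7.98 at least), while Fos, Egr1 and Nr4a1 spread widely within a group.

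Egr2, a zinc finger factor known from Schwann cells and lymphocytes, came next in size among the increases but missed the threshold. It was at 6.68, 6.98, 6.84, 7.49 and 6.49 in the ApoE knockout replicates. Its double knockout values were 7.31, 7.45, 8.23, 7.36 and 7.14. In the ApoE knockout, 4 of 5 aortas lay below all double knockout aortas, and replicate 4 lay among them. The difference was 0.60 (1.52-fold, SE 0.22, 95% interval 0.12 to 1.08, adjusted p = 0.0579). Without ApoE knockout replicate 4 it was 0.75 (adjusted p = 0.0233), without double knockout replicate 5 it was 0.69 (adjusted p = 0.0478), and without double knockout replicate 3, the highest array, it was 0.42 (adjusted p = 0.104). After centring on the median it was 0.40 (95% interval -0.07 to 0.86, adjusted p = 0.171). Of 3 Schwann cell markers, 2 were lower in the double knockout (sums of 19.0 to 20.4 against 18.5 to 19.2). Sox10, the remaining marker, went the other way and did not pass (0.23, adjusted p = 0.051). Among all genes 7.53% passed as lower.

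Egr1, a zinc finger factor known to be induced in injured arteries, was at 8.92, 7.94, 8.44, 9.12 and 8.29 in the ApoE knockout replicates. Double knockout aortas had 8.83, 7.61, 9.24, 8.28 and 8.82. The group means, 8.54 ± 0.48 and 8.56 ± 0.63 (SD, n = 5), differed by 0.02, far less than the spread (95% interval -0.64 to 0.67, adjusted p = 0.971). The sign of so small a difference has no weight, and it turned after centring on the median (-0.19). Egr2 against Egr1 gave an excess of 0.58 that did not pass (exact p = 0.119, adjusted p = 0.179).

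Fosb, which encodes an AP-1 subunit that pairs with Jun proteins, had the largest decrease of the 10 and likewise missed the threshold. It was at 8.34, 7.12, 7.48, 7.82 and 7.69 in the ApoE knockout replicates. Values of 7.49, 7.48, 7.06, 6.71 and 6.77 were measured in the double knockout. There, 3 of 5 aortas lay below all ApoE knockout aortas, and 3 of 5 ApoE knockout aortas lay above all double knockout aortas. The difference was -0.59 (SE 0.23, 95% interval -1.08 to -0.10, adjusted p = 0.0676). It passed without ApoE knockout replicate 2 (-0.73, adjusted p = 0.0312) and without double knockout replicate 2 (-0.68, adjusted p = 0.0477). Fosb also passed under 2 of 10 alternatives of processing, among them centring on the median (-0.79, adjusted p = 0.0186).

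Fos was the most variable of the set. It was at 8.70, 6.65, 7.93, 8.06 and 7.37 in the ApoE knockout replicates, a range that enclosed every double knockout value (8.01, 7.22, 7.47, 7.64 and 7.76). The difference of -0.12 did not pass (95% interval -0.81 to 0.56, adjusted p = 0.787), and it was 0.12 without ApoE knockout replicate 1 and -0.39 without ApoE knockout replicate 2. After centring on the median it was -0.33 (adjusted p = 0.434). Fosb against Fos did not pass either (-0.47, exact p = 0.119, adjusted p = 0.179).

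Jun and Junb, the AP-1 partners of Fos proteins, did not pass either. Jun was between 10.67 and 10.91 in all 5 ApoE knockout aortas. In the double knockout, replicates 1, 3 and 4 were at 10.35, 10.37 and 10.27, below all ApoE knockout aortas, while replicates 2 and 5 were at 11.00 and 10.83. The difference was -0.19 (SE 0.14, 95% interval -0.49 to 0.11, adjusted p = 0.309). After centring on the median the Jun difference was -0.39 (95% interval -0.71 to -0.08, adjusted p = 0.0555). Junb values were 9.38 to 9.77 for ApoE knockout and 9.28 to 9.64 for double knockout aortas, with a difference of -0.10 (SE 0.10, 95% interval -0.32 to 0.12, adjusted p = 0.447). Junb passed as lower only under centring on the median (-0.31, adjusted p = 0.0314), which shifts the median of all genes to -0.11. Jun against Junb did not pass (-0.09, exact p = 0.675).

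Atf3 encodes a stress-induced bZIP factor that mostly represses transcription. It lay between 9.08 and 9.35 in the ApoE knockout. In the double knockout it was at 9.46, 9.56 and 9.63 in replicates 1, 2 and 5, above all ApoE knockout aortas, and at 8.60 and 8.89 in replicates 3 and 4, below all of them. The means, 9.24 ± 0.11 and 9.23 ± 0.46 (SD, n = 5), differed by -0.01 (95% interval -0.41 to 0.39, adjusted p = 0.965), and by -0.22 after centring on the median (adjusted p = 0.391). The difference in spread between the groups was not tested.

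**Figure D2:**
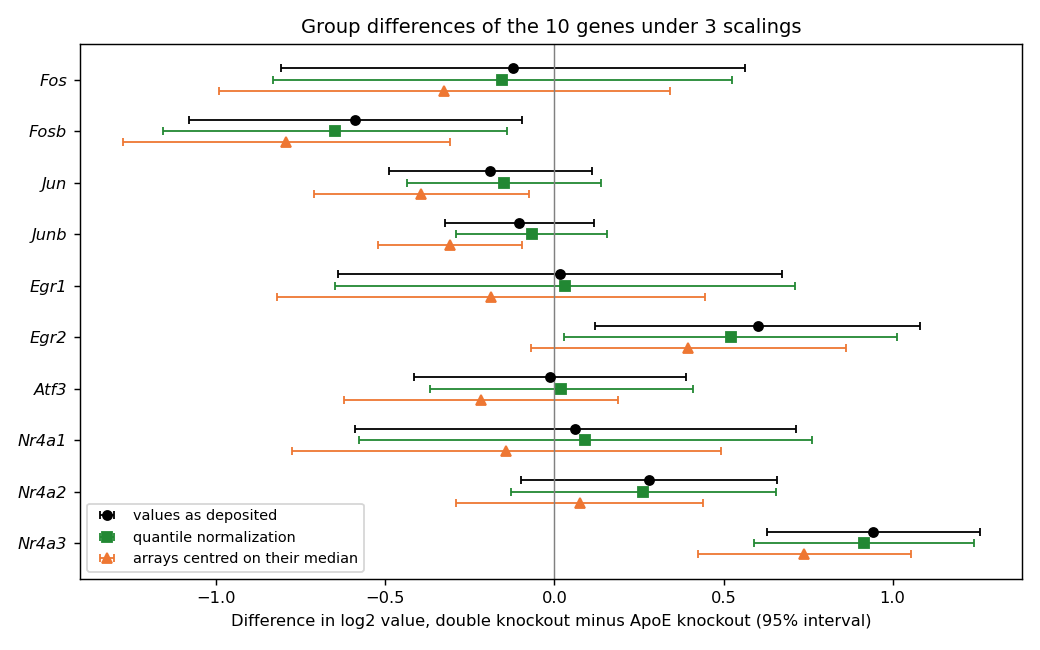
Difference in log2 value between the group means (horizontal axis, double knockout minus ApoE knockout) with its 95% interval from limma, for the 10 genes as deposited, after quantile normalization and after centring each array on its median. The interval of Nr4a3 lies above 0 under all 3 scalings (0.94, 0.91 and 0.74), and the interval of Fosb lies below 0 under all 3 although its adjusted p passed under centring alone.

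The immediate early genes varied more between mice of 1 genotype than most genes at or above the receptor gene level did. The residual SD within groups ran from 0.16 for Junb to 0.58 for Fos with a median of 0.37, while the median over the 13499 genes at or above the receptor gene level was 0.14. All 10 lay above that median, although Junb lay below the median of all 22180 genes (0.17). Fos, Egr1 and Nr4a1 (residual SD 0.58, 0.56 and 0.55) stood at percentiles 98.6, 98.4 and 98.3 of those genes, and Nr4a3 (0.25) at percentile 86.1. The precision follows from this spread. The 95% interval of a difference extended 0.20 to each side for the median gene at or above the receptor gene level, but from -0.81 to 0.56 for Fos and from -0.64 to 0.67 for Egr1.

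**Figure D3:**
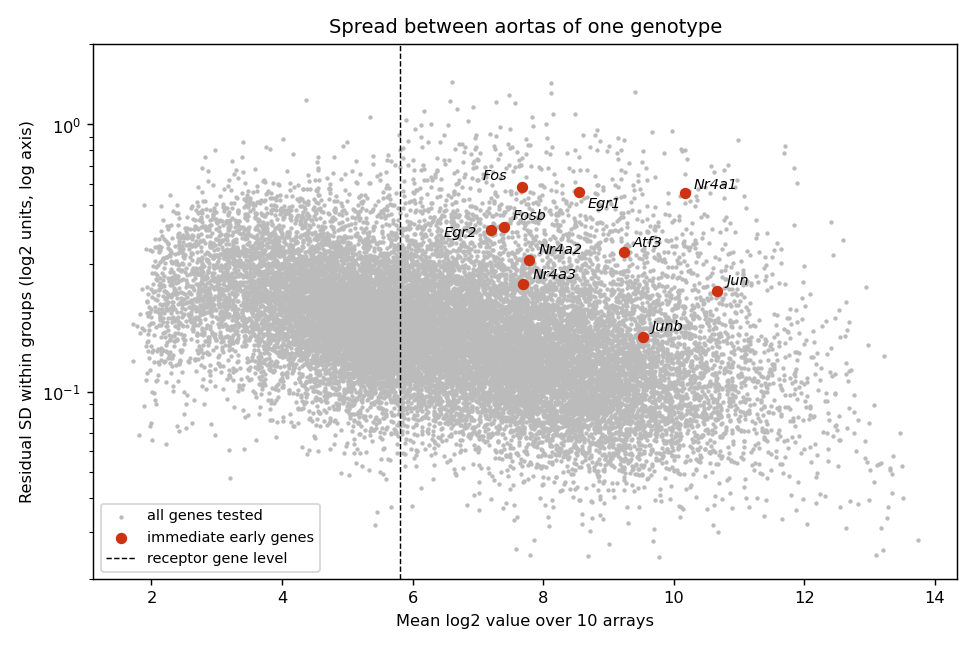
Residual SD within the 2 groups in log2 units (vertical log axis) against the mean log2 value over 10 arrays, for all 22180 genes (grey) and the 10 immediate early genes (red). The dashed line is the receptor gene level of 5.80. Fos, Egr1 and Nr4a1 lie near the upper edge of the cloud at 0.55 to 0.58, and Junb (0.16) lies within it.

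Single aortas stood apart in several of the genes at once. ApoE knockout replicate 2 was the lowest aorta of its group in 7 of the 10 genes (Fos, Fosb, Junb, Egr1, Nr4a1, Nr4a2 and Nr4a3), with deviations from the group mean of -1.09 for Fos and -1.02 for Nr4a1. ApoE knockout replicate 1 was the highest in 7 of 10 (Fos, Fosb, Jun, Junb, Atf3, Nr4a1 and Nr4a2). Among double knockout aortas none was lowest in more than 4 genes or highest in more than 4. Each pair of genes was compared by the correlation, over 10 arrays, of deviations from the group means, with exact permutation within both groups and adjustment over the 45 pairs. Fos and Nr4a2 were closest (r = 0.90, exact p = 0.0047, adjusted p = 0.106, rho = 0.77, exact p = 0.026), and r was 0.68 without ApoE knockout replicates 1 and 2. Fos and Junb had r = 0.80 (exact p = 0.0083, adjusted p = 0.124, rho = 0.76, exact p = 0.0307) and 0.70 without the same arrays. Of 45 pairs, 30 had r above 0 and 10 had an exact p under 0.05, but 0 passed after adjustment, so no single pair is established here.

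The lowest correlations were those of Atf3 with Egr2 and Nr4a3. Atf3 and Nr4a3 had r = -0.64 (exact p = 0.0035, adjusted p = 0.106, rho = -0.73, exact p = 0.0033), and r was -0.54 without the 2 arrays farthest from the median of Atf3, double knockout replicates 3 and 4. Atf3 and Egr2 had r = -0.65 (exact p = 0.0321, adjusted p = 0.18, rho = -0.45, exact p = 0.205). That r was -0.05 without the 2 arrays farthest from the median of Egr2, double knockout replicate 3 and ApoE knockout replicate 4. The value of -0.65 thus rested on these 2 arrays. Jun and Atf3, which both split the double knockout aortas, had r = 0.71 (exact p = 0.135, adjusted p = 0.411, rho = 0.67, exact p = 0.133). By the mean deviation of the 10 genes, the most alike among other genes at or above the receptor gene level were P2rx6, Ccdc61, Kif12, Ttc25 and Arid1b, with r from 0.93 to 0.95 over 10 arrays and from 0.81 to 0.90 without ApoE knockout replicates 1 and 2. They are the top of 13499 genes whose r ran from -0.95 to 0.95, and no chance level was set for such a maximum.

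**Figure D4:**
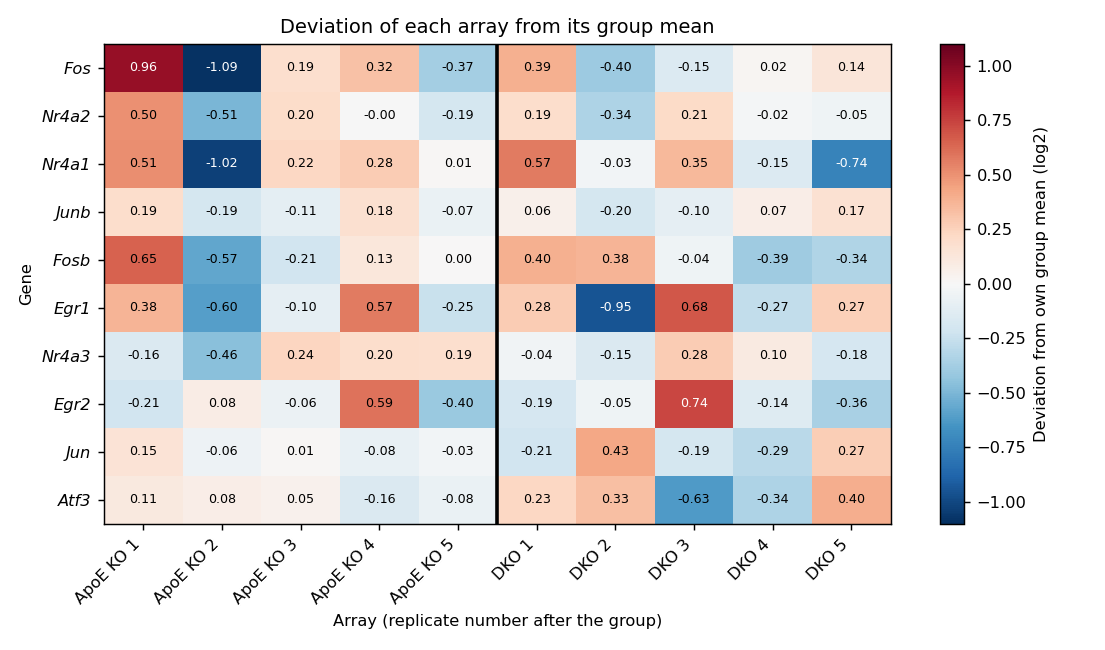
Deviation of each array (columns, with the replicate number) from its own group mean in log2 units, for the 10 genes (rows), red above and blue below. ApoE knockout replicate 2 is blue for most genes (-1.09 for Fos and -1.02 for Nr4a1), replicate 1 is red for most (0.96 for Fos), and Jun and Atf3 at the bottom follow another order.

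Markers of other tissues stood beside this pattern. The 5 skeletal muscle markers had a mean log2 value of 6.38 in ApoE knockout replicate 2, the highest of the 10 aortas, and of 5.16 to 5.25 in the other ApoE knockout aortas. Their sums were 25.8 to 31.9 in the ApoE knockout and 25.8 to 29.4 in the double knockout, 3 of the 5 markers lay below the receptor gene level, and 0 of 5 were called. The 6 adipocyte markers were highest in ApoE knockout replicate 1 (sum 65.2), with sums of 53.3 to 65.2 and 53.0 to 60.2 and 0 of 6 called. Each marker was correlated with the mean deviation of the 10 genes over 10 arrays. That mean was largest in size in ApoE knockout replicates 2 and 1 (-0.43 and 0.31). These correlations were not computed again without those aortas. The median r was -0.71 for skeletal muscle (-0.86 to -0.27) and 0.67 for adipocyte markers (0.58 to 0.72). It was -0.67 for the 6 endothelial (-0.71 to 0.43) and 0.62 for the 3 Schwann cell markers (0.20 to 0.73). Medians of -0.52 for the 7 neutrophil (-0.775 to 0.485) and 0.43 for the 4 B cell markers (0.31 to 0.63) followed. For the other marker lists it ran from -0.35 (fibroblast) to 0.31 (platelet), beside -0.06 over all genes at or above the receptor gene level. T cell markers were highest in ApoE knockout replicate 2 as well (mean 9.09), with a median r of -0.25. The part of these cells in the spread of the immediate early genes was not tested.

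The wider early response was read through further gene lists, against the 30.3% called of all genes and their median difference of 0.10. After centring on the array medians, 7310 of the 22180 genes were called, 1669 higher and 5641 lower, with a median difference of -0.11. Among 11 measured partners of the AP-1 and ATF families 2 fell and 0 rose, with a median difference of 0.03. Jund, the AP-1 subunit that is expressed at rest rather than induced, was lower in every double knockout aorta (9.99 to 10.26) than in any ApoE knockout aorta (10.49 to 10.64). Such a gap downwards was found in 4.8% of all genes. The Jund difference was -0.44 (SE 0.07, adjusted p = 0.00127), and -0.29 with the mean of its probe sets (adjusted p = 0.0196). Atf2, a bZIP factor activated by stress kinases, fell by 0.30 (SE 0.06, adjusted p = 0.00449). Mafk (-0.28, adjusted p = 0.0599) and Fosl2 (0.21, adjusted p = 0.0743) did not pass. Mafk passed under 4 of 10 alternatives, among them centring (-0.48, adjusted p = 0.00687), and Fosl2 under 2, with 0.25 after quantile normalization (adjusted p = 0.0477) but 0.01 after centring.

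Of 13 other early response transcription factors, 1 rose and 1 fell (median -0.06), and after centring 1 was higher and 5 lower (median -0.26). Nfil3, a bZIP repressor with roles in the clock and in lymphoid cells, was at 7.33 to 7.88 in the ApoE knockout and at 8.01 to 8.69 in the double knockout. It was 1.61-fold higher (log2 0.69, SE 0.14, adjusted p = 0.0045), without overlap. Klf2, the flow-induced factor of endothelium and quiescent lymphocytes, was lower by log2 -0.59 (SE 0.16, adjusted p = 0.0169). Endothelial markers were lower beside it in 2 of 6 and higher in 0 of 6, where 7.53% of all genes were called lower. Their sums were 61.5 to 62.7 against 59.2 to 61.9. T cell markers were lower in 3 of 5 (32.4 to 45.5 against 28.9 to 35.6). The part of these cells in the Klf2 difference was not tested. Ier5 (0.27, adjusted p = 0.0804) and Egr4 (0.30, adjusted p = 0.0979, with an ApoE knockout mean of 5.71 below the receptor gene level) did not pass, and after centring they were at 0.06 and 0.10.

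Among 14 measured upstream kinases and factors, 1 rose and 1 fell (median -0.03), and after centring 0 were higher and 7 lower (median -0.24). Elk4, a partner of serum response factor, fell by 0.38 (SE 0.10, adjusted p = 0.0186). Mapk8, which encodes the kinase JNK1, rose by 0.23 (SE 0.07, adjusted p = 0.0215), which no longer passed after centring on the median (0.03, adjusted p = 0.782). Mapk14, the p38 alpha kinase (-0.15, adjusted p = 0.0911), and Elk3 (-0.19, adjusted p = 0.139) did not pass as deposited, but did after centring (-0.35 and -0.39, adjusted p = 0.00368 and 0.0108). Srf itself differed by 0.06 (adjusted p = 0.519) and Creb1 by 0.01 (adjusted p = 0.932), values given after they were seen.

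Of 21 genes that restrain the response, 1 fell and 0 rose (median -0.12). Dusp1, the phosphatase that switches off MAP kinases, was at 11.23 to 11.97 in the ApoE knockout and at 10.85 to 11.50 in the double knockout. Its difference of -0.46 (SE 0.16, adjusted p = 0.0446) was lost with 8 of the 10 arrays left out in turn (adjusted p up to 0.0964). It was lost after quantile normalization as well (-0.43, adjusted p = 0.075). Dusp1 passed under 7 of 10 alternatives, among them centring on the median (-0.66, adjusted p = 0.00824). The next in order were Tnfaip3 (-0.40, adjusted p = 0.054), Spred1 (-0.17, adjusted p = 0.0601) and Dusp6 (-0.23, adjusted p = 0.0961). They did not pass as deposited, and passed under 5, 4 and 1 of 10 alternatives. With the mean of its probe sets Dusp6 was at -0.016 (adjusted p = 0.894). After centring on the median, 11 of the 21 passed as lower and 0 as higher, where 5641 of all 22180 genes passed as lower.

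Of 21 measured effector genes, 2 rose and 1 fell (median 0.00), and after centring 0 were higher and 4 lower (median -0.21). Gem, a small GTPase of the cytoskeleton and calcium channels, was 1.45-fold higher (0.54, SE 0.13, adjusted p = 0.0119), and Lif, a cytokine of the interleukin 6 family, was 1.23-fold higher (0.30, SE 0.07, adjusted p = 0.0105). The mean of Lif, 6.01 in the ApoE knockout, is close to the receptor gene level, and the receptor genes differed by a median of 0.29. The Lif call was lost after quantile normalization (0.12, adjusted p = 0.257), and both calls were lost after centring on the median (0.33 and 0.10, adjusted p = 0.0836 and 0.326). Plk2, a kinase induced by serum, was 1.51-fold lower (-0.59, SE 0.14, adjusted p = 0.00966). Ccn2, the connective tissue growth factor, did not pass as deposited (0.33, adjusted p = 0.0558). It passed under 6 of 10 alternatives and was at 0.13 after centring (adjusted p = 0.47).

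Heat shock genes, another set of fast stress genes, were mostly higher in the double knockout. Of 11 measured, 7 rose and 0 fell (63.6% called), with a median difference of 0.56 beside 0.10 for all genes, and after centring 5 were higher and 1 lower. Their mean level was 9.28 to 9.78 in the ApoE knockout and 9.80 to 10.41 in the double knockout, without overlap. Dnajb1, a co-chaperone of Hsp70, rose by 0.89 (SE 0.15, adjusted p = 0.00173), and Hsp90aa1, the inducible Hsp90, by 0.56 (SE 0.10, adjusted p = 0.00299). Hspa1a rose by 1.35 (SE 0.16, adjusted p = 0.000327) and Hspa1b by 1.49 (SE 0.29, adjusted p = 0.00361), near-identical copies of inducible Hsp70 that may share signal. Cardiac muscle markers were higher too in 3 of 6 (sums of 37.8 to 41.1 against 40.8 to 46.0). Of the fibroblast and the smooth muscle markers, 2 of 6 each passed as higher and 4 did not pass. Among all genes 22.8% passed as higher. Whether these markers or the heat shock rise have a part in the Nr4a3 difference was not tested.

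**Figure D5:**
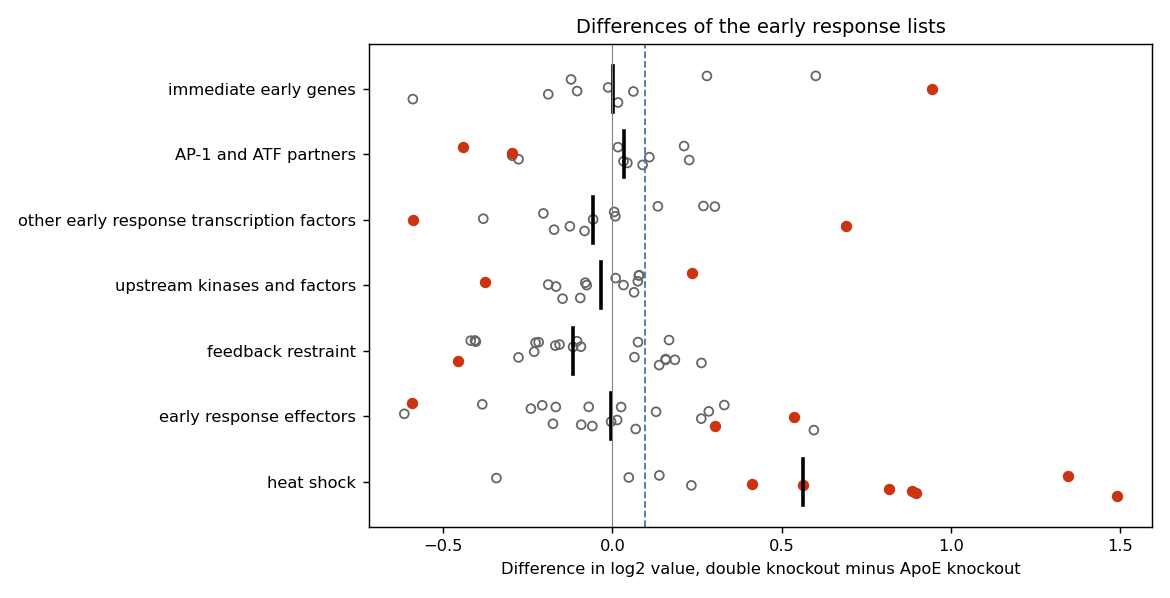
Difference in log2 value, double knockout minus ApoE knockout (horizontal axis), of every measured gene of the immediate early set and 6 further lists, with filled red points for a limma adjusted p under 0.05, open points otherwise, and a black bar at each list's median. The dashed line is the median of all genes (0.10). The heat shock list has its median at 0.56, while the medians of the other lists lie between -0.12 and 0.03.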

How the data were processed

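The values are from whole-aorta RNA of 10 mice on Mouse Gene 2.0 ST arrays (labels' protocols). The authors deposited 1 log2 value per probe set and array. That the base is 2 was read from how far the values spread. limma appears in the submitters' processing notes without a version, and how background was removed and arrays were scaled is not stated there. Group and replicate come from the sample titles, and nothing was filtered or normalized further.

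Of 41345 probe sets, 23521 had 1 symbol in the platform annotation, 1814 several and 16010 none. For each gene the probe set with the highest mean was kept, which left 22180 genes. The test was limma 3.58.1 in R 4.3.3 (lmFit, eBayes), two-sided, with no covariate beside genotype, Benjamini-Hochberg adjusted over all genes, threshold 0.05. Differences are double knockout minus ApoE knockout. Permutation tests were exact and two-sided. The fit was tested on simulated data. Figures used matplotlib 3.10.9.

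Named genes are the 10 members, up to 4 genes with the smallest p of each list, the 5 genes most like the members, and the targeted genes. List genes without a named probe set were not analysed here. The members and lists were chosen with earlier results of these data known, and the tests within families and of paired genes were added after the values were seen. Alternatives covered scaling, dim genes, probe set choice, prior, weights, replicate block and leaving out each array.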

Additional observations from a re-analysis of the deposited data

Results flagged for a closer look

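Single arrays far from the other 4 of their group were looked for in 36 of the named genes, 72 groups of 5 in all. The 5 genes most like the members were not searched. Chance alone flags about 1 in 20 such groups. Such an array was met 5 times, in 1 immediate early gene and 4 others. Egr2 was at 8.23 in double knockout replicate 3, where the other double knockout aortas were at 7.14 to 7.45. Elk4 was at 7.92 in double knockout replicate 1 (others 8.23 to 8.32), and Spred1 at 8.55 in the same aorta (others 8.62 to 8.64). Dusp1 was at 10.85 in double knockout replicate 2 (others 11.32 to 11.50). Lif was at 5.87 in ApoE knockout replicate 2 (others 6.02 to 6.07), the aorta that was lowest in 7 of the 10 immediate early genes.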

How the results depend on the processing

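The Nr4a3 call held under all 10 alternatives (0.74 to 0.94, adjusted p 0.000707 to 0.00359) and with each array left out in turn (0.83 to 1.00, adjusted p 0.00172 to 0.00395). The count of immediate early genes called was 3 after centring on the median, 2 with array weights, 3 with the replicate block and 1 to 2 with 1 array left out. Calls over all 22180 genes numbered 6721 (75.1% higher) as deposited, 4461 (44.4%) after quantile normalization and 7310 (22.8%) after centring. Other numbers of tests underlie the further counts. They were 3494 of 13499 genes without dim genes, 3472 with both quantile normalization and that filter, and 10692 of 41345 probe sets. Centring called 6 other early factors (5 lower), 7 upstream genes and 11 restraint genes (all lower in both lists) and 4 effectors (all lower). The restraint count was otherwise 2 without dim genes, 2 under either other probe set rule, 0 over all probe sets (limma, 4 at an unadjusted p under 0.05), 3 with the prior trend, 3 with array weights, 2 with quantile normalization and the filter, and 0 to 3 with 1 array left out, being 0 without ApoE knockout replicates 3 or 4 or double knockout replicates 1 or 4 (3 to 7 at an unadjusted p under 0.05). The effectors came to 5 with array weights and 3 to 5 with 1 array left out. With the replicate number as a block, 4 partner genes, 3 restraint genes and 5 effectors were called, and Egr2 (adjusted p = 0.0479) and Nr4a2 (0.0491) passed. Same-numbered arrays correlated at -0.13 to 0.26 in their deviations over all genes and 3 of 5 matched best with their own number, so the numbers are not shown to pair the mice. Small differences changed sign. Atf3 was 0.021 after quantile normalization, with or without dim genes, and Il17a was -0.019. Egr1 and Nr4a1 were -0.19 and -0.14 after centring, and -0.031 and -0.060 with array weights. With 1 array left out, Fos ran from -0.39 to 0.12, Egr1 from -0.15 to 0.25, Atf3 from -0.11 to 0.14, Nr4a1 from -0.19 to 0.25, and Jun against Junb from -0.24 to 0.0056. The causes were not tested.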
